A study of Homo sapiens with 23 samples.

Results

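BATF3, NFIL3, CEBPB, CEBPD, CEBPA, CEBPG, MAFF, FOSL1, FOSL2 and JUNB encode transcription factors of the bZIP family, and their RNA levels were followed across 6 groups of human lung fibroblasts. The 10 genes were listed by name, and BATF3 and NFIL3 were put on the list by their values in 1 contrast: they were chosen by a higher level with an antibody to the receptor IL-13Ra2 than without it in pretreated cells given IL-13, so that contrast is described here and not tested. Of the 10 genes, 9 had an annotated probe, and 11 probes of these 9 passed the detection filter, among 12994 genes tested in all. CEBPA was not analysed here.

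The cells were CCL-75, a line of lung fibroblasts, and their RNA was hybridised to 23 single-colour Illumina bead arrays from 300 ng of total RNA each. In Pre_Ab_IL13 the cells received TNF and IL-17 for 72 hours, a neutralising anti-IL-13Ra2 antibody for the last 1 hour, a wash, and then IL-13 for 20 hours (4 arrays). Pre_Ab_only had the same pretreatment and antibody without IL-13 (4 arrays), Pre_IL13 had the pretreatment and IL-13 without antibody (4 arrays), and Pre_only had the pretreatment alone (3 arrays). IL13 cells had IL-13 without pretreatment (4 arrays), and Control cells had neither (4 arrays). Cells came from passage 6 (12 arrays) and passage 8 (11 arrays) and each passage had an experiment A and an experiment B, except that Pre_only lacks experiment A of passage 8. The 2 passages were run on separate beadchips, and a difference between passages cannot be told apart from one between beadchips. All arrays come from 1 line, and 1 label calls experiments A and B technical replicates while the design text calls them independent, so p-values measure the spread between these arrays.

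A bZIP protein binds DNA through a basic region and pairs with a partner through a leucine zipper, and the partner sets which sites it binds. FOS, JUN, BATF and MAF members form AP-1 and related dimers, C/EBP members bind another set of sites and are known for driving inflammatory genes, and NFIL3 binds the D-box sites of the circadian clock. BATF3 is best known from mouse dendritic cells, whose cross-presenting subset needs it, and NFIL3 from mouse natural killer cells, whose development needs it.

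Promoter sequence is shown for CEBPB and NFIL3, which were called in a comparison below, and for MAFF, of which 1 of 3 probes passed; all 3 genes have an entry in the RefSeq promoter table (GRCh38.p14), and the values below can be read beside the DNA ahead of each gene's first listed start. Each run holds the 250 bases before that start, 5′ to 3′ in the direction of the gene, and capitals mark matches to the motifs searched. NFIL3 lies on the minus strand at chr9:91424627-91424876, CEBPB on the plus strand at chr20:50190333-50190582, and MAFF on the plus strand at chr22:38201744-38201993.
NFIL3: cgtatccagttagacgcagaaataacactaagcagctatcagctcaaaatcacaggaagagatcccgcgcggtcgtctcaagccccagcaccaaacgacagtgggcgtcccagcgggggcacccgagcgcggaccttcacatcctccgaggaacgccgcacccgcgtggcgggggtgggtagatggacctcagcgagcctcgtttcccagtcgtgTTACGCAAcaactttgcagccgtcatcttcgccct
CEBPB: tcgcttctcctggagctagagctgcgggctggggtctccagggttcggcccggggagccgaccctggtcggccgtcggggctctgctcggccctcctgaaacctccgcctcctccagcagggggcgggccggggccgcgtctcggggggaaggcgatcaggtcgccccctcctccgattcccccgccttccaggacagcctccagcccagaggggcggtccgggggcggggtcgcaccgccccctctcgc
MAFF: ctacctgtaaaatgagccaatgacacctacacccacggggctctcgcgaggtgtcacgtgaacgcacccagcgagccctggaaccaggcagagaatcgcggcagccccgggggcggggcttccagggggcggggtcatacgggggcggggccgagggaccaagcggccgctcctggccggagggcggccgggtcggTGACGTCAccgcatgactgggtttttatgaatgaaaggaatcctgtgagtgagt

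The motifs were searched on both strands in the 250 bases before each of 35116 listed starts, and a palindromic match was counted once. The NFIL3 window held TTACGCAA 35 bases before the start. This run is in 0.148% of all windows, and it was added to the search after the NFIL3 sequence had been read. The MAFF window held TGACGTCA, the cAMP response element, 54 bases before the start, and 1.65% of all windows hold it. The CEBPB window shown held no match to any motif searched, while the window before the gene's second listed start, which adjoins it, held TATAAA 29 bases before that start. NFIL3 and MAFF each have a second listed start too, and the windows before those held no match to any motif searched. The other motifs searched were TGANTCA (AP-1, in 6.57% of windows), TTACNTAA (D-box, 1.98%), TTCNNNNGAA (the spacing preferred by STAT6, 5.38%), TTCNNNGAA (other STATs, 6.57%), GGGNNTTNCC (NF-kB, 5.07%) and TATAAA (10.7%). These are matches of letters and were not tested as binding sites. The promoter table had entries for 7 of the 10 genes.

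Genes that check the labels were read first. IL13RA2, which encodes IL-13Ra2, was higher in Pre_only than in Control by 3.85 ± 0.15 on the log2 scale (SE, adjusted p = 1.43e-18). CCL26, an eotaxin that IL-13 is known to induce, was higher in IL13 than in Control by 5.02 ± 0.20 (adjusted p = 1.67e-17). The arrays detected 17811 to 20162 probes each, and all 11 of 11 fibroblast markers were detected on every array. Level means log2 normalised intensity throughout, a called gene has a limma p-value under 0.05 after Benjamini-Hochberg adjustment over the 12994 genes, and ± after a difference is the model's standard error.

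The probes differ in brightness, which limits what they can show. Median intensities before normalisation were 128 for BATF3, 138 for FOSL2 and 123 for JUNB, against array medians of 93.4 to 106, so these lie close to the background. CEBPB had a median intensity of 3660 and CEBPD of 984. Each value averages 7 to 41 beads, whose standard error was 3.54% of the mean at the median over the 11 probes and 23 arrays and 8.72% at most.

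IL13 was set against Control to see how the 9 genes respond to IL-13 in cells that had no pretreatment. BATF3 and NFIL3 rose, and the other 7 measured genes did not pass the test. The 2 called genes of 9 stand against 1.87% of all genes called in this comparison and 1.15% that rose. Both were put on the list for a higher level with the antibody in pretreated cells given IL-13. The count therefore does not speak for the family as a whole. The median difference of the 9 genes was 0.00, against -0.01 over all genes. The groups did not overlap for 3 of the 9 genes, BATF3, NFIL3 and FOSL1, and for 4.19% of all genes.

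BATF3 levels were 7.05 and 7.01 in IL13 arrays of passage 6 and 6.66 and 6.64 in IL13 arrays of passage 8. In Control they were 5.43 and 5.01 in passage 6 and 5.12 and 5.0 in passage 8. All 4 IL13 arrays lay above all 4 Control arrays, and the IL13 arrays of a passage differed little from each other. The difference was 1.70 ± 0.19, a 3.25-fold higher level (adjusted p = 4.34e-07), with 1.81 in passage 6 and 1.59 in passage 8. The passages' differences could not be told apart (passage 8 minus passage 6, -0.22 ± 0.26, adjusted p = 0.885). Because the probe is dim, the size depends on the background correction: without it the difference was 0.75, and it passed the test under each of 41 alternative settings.

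NFIL3 levels were 8.44 and 9.0 in IL13 arrays of passage 6 and 8.33 and 8.38 in those of passage 8, against 7.59, 7.74, 7.45 and 7.69 in Control. The groups did not overlap, and the highest array, experiment B of passage 6, stood apart from the other IL13 arrays. The difference was 0.92 ± 0.12, a 1.89-fold higher level (adjusted p = 5.38e-06), with 1.06 in passage 6 and 0.78 in passage 8. It ranged from 0.71 to 1.06 over the alternatives and passed the test in each of the 41.

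FOSL1, a FOS-related partner of JUN proteins, missed the threshold here although its groups did not overlap. Its levels were 6.96, 7.17, 7.59 and 7.45 in IL13 arrays, against 7.89, 7.73, 7.72 and 7.78 in Control. The difference was -0.49 (95% interval -0.79 to -0.19, adjusted p = 0.0868), with -0.75 in passage 6 and -0.23 in passage 8. It passed in 5 of 41 alternative settings, 1 of which left out the Pre_only array of passage 8, which is not part of the comparison. The interval of CEBPD ran from 0.12 to 0.72 (adjusted p = 0.174), and its difference was 0.75 in passage 6 and 0.08 in passage 8.

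**Figure D1:**
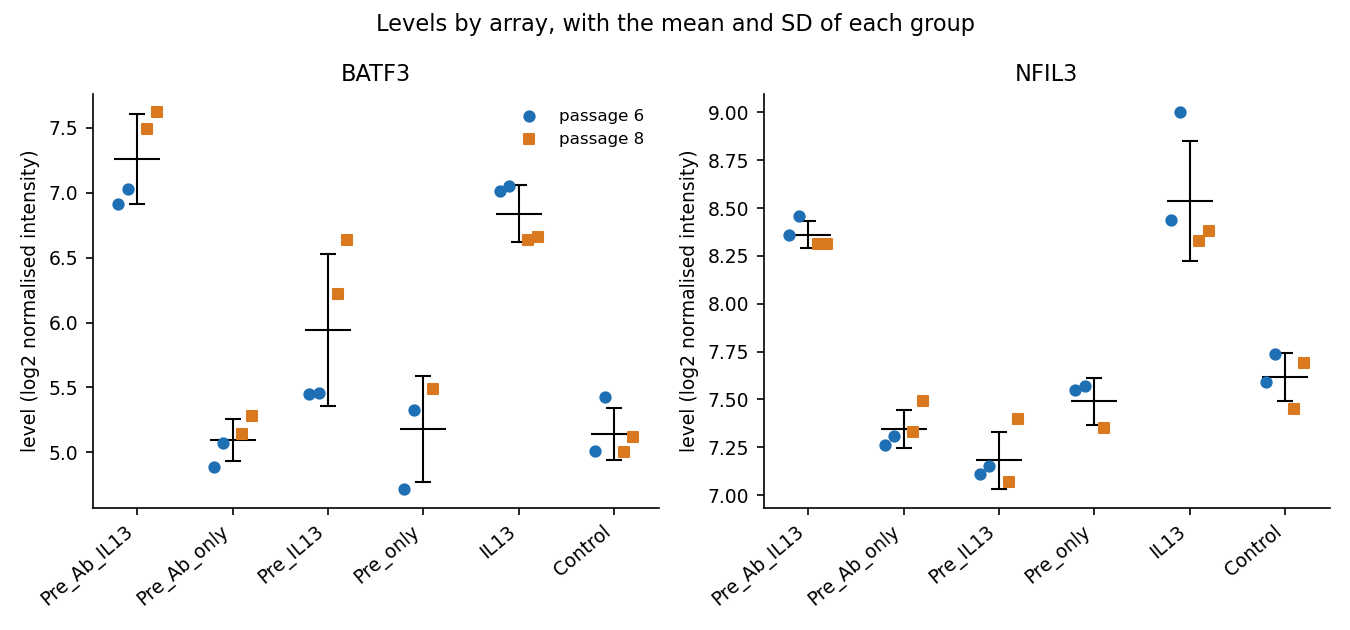
Levels (log2 normalised intensity, vertical axis) of BATF3 and NFIL3 on each array in the 6 groups, with circles for passage 6, squares for passage 8, and a bar with whiskers for the mean and SD of a group. BATF3 averages 7.26 in Pre_Ab_IL13 and 6.84 in IL13, while NFIL3 averages 8.36 and 8.54 there and stays between 7.18 and 7.62 in the other 4 groups.

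After pretreatment the same addition of IL-13 gave smaller differences in both genes. BATF3 levels were 5.46 and 5.45 in Pre_IL13 arrays of passage 6 and 6.22 and 6.64 in those of passage 8, against 4.72 and 5.33 in Pre_only arrays of passage 6 and 5.49 in the 1 of passage 8. The passages therefore stood apart within Pre_IL13, whose SD of 0.59 was the widest of BATF3 in any group. The difference was 0.72 ± 0.21, with 0.43 in passage 6 and 0.94 in passage 8, and it was 0.28 without background correction. NFIL3 levels were 7.15, 7.11, 7.07 and 7.40 in Pre_IL13, against 7.55, 7.57 and 7.35 in Pre_only. The NFIL3 difference was -0.30 ± 0.13 (-0.11 with median scaling), and 3 of 4 Pre_IL13 arrays lay below their passage's Pre_only level. These arrays helped to choose both genes, so no p-value is given for them here.

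With the antibody, IL-13 was followed by high levels of both genes again. BATF3 levels were 6.91 and 7.03 in Pre_Ab_IL13 arrays of passage 6 and 7.62 and 7.49 in those of passage 8, against 5.07, 4.89, 5.14 and 5.28 in Pre_Ab_only. The difference was 2.17 ± 0.19, and it was present in both passages (1.98 and 2.35), and without background correction it was 1.03. NFIL3 levels were 8.36, 8.46, 8.31 and 8.31 in Pre_Ab_IL13, against 7.31, 7.26, 7.33 and 7.49 in Pre_Ab_only, a difference of 1.01 ± 0.12. For both genes every Pre_Ab_IL13 array lay above every Pre_Ab_only array. Over all genes 6.4% had groups that did not overlap, in either direction.

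The contrast that selected BATF3 and NFIL3 sets Pre_Ab_IL13 against Pre_IL13. BATF3 averaged 7.26 ± 0.35 in Pre_Ab_IL13 and 5.94 ± 0.59 in Pre_IL13 (SD, n = 4 each), a difference of 1.32 ± 0.19. NFIL3 averaged 8.36 ± 0.07 in Pre_Ab_IL13 and 7.18 ± 0.15 in Pre_IL13 (SD, n = 4 each), a difference of 1.18 ± 0.12. In the same contrast the differences of the other 7 genes ran from -0.26 for MAFF to 0.30 for CEBPD. Without background correction, or on the authors' own normalised values, the BATF3 difference was 0.70.

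The response to IL-13 can be set side by side in the 3 settings. For BATF3, each IL-13 array stood above the mean of its passage's arrays without IL-13: by 1.92 to 2.41 in Pre_Ab_IL13, by 0.43 to 1.15 in Pre_IL13, and by 1.58 to 1.83 in IL13. For NFIL3 these differences were 0.90 to 1.17 in Pre_Ab_IL13, -0.45 to 0.05 in Pre_IL13, and 0.76 to 1.34 in IL13. In Pre_Ab_IL13 minus Pre_Ab_only the model's response exceeded that of IL13 minus Control by 0.46 ± 0.27 for BATF3 and by 0.09 ± 0.17 for NFIL3, and these differences were not tested. Without both IL13 arrays of passage 6, a setting chosen after seeing the data, the BATF3 value was 0.86.

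**Figure D2:**
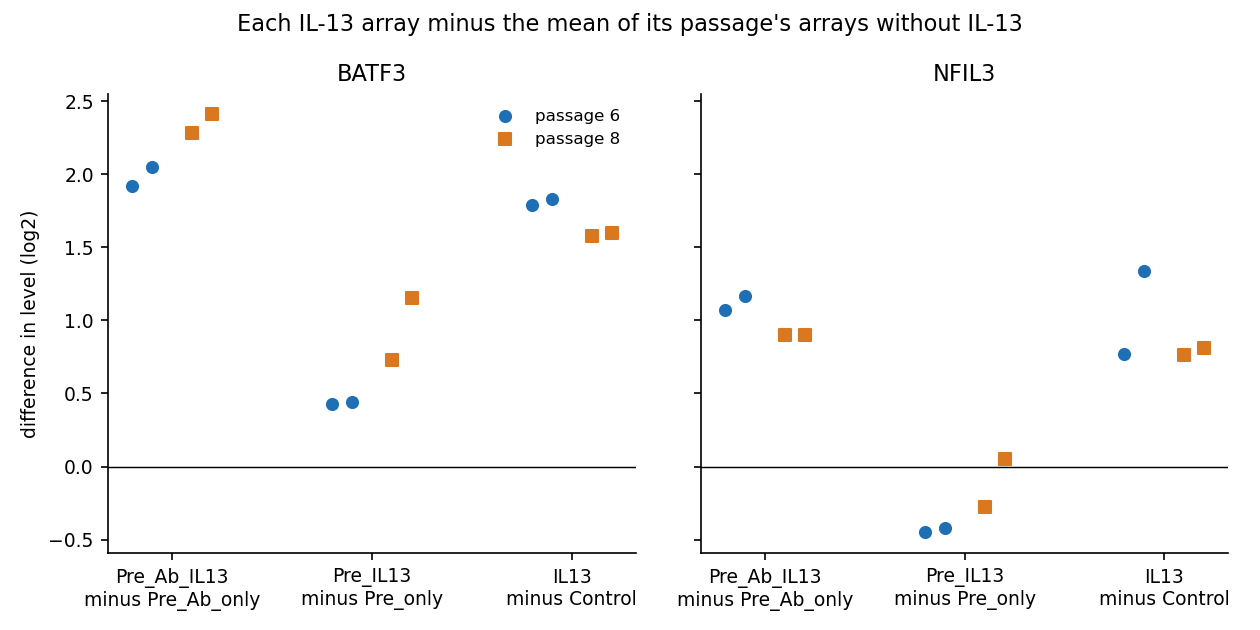
Difference in level (log2, vertical axis) of BATF3 and NFIL3 between each IL-13 array and the mean of the arrays without IL-13 from the same passage, for antibody and pretreatment, pretreatment alone, and no pretreatment. The Pre_IL13 differences lie at 0.43 to 1.15 for BATF3 and at -0.45 to 0.05 for NFIL3, below those of both other settings.

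None of the other 7 genes passed a limma test of such a difference. The response to IL-13 after pretreatment was called different from that without it for 0 of these 7 (0.3% of all genes called, and 3 of the 7 had an unadjusted p under 0.05). The response with the antibody was called different from that without it for 0 of 7 (0.231% of all genes, and 0 of the 7 at the unadjusted p). The responses with the antibody and without pretreatment were called different for 0 of 7 (0.0693% of all genes, and 1 of the 7 at the unadjusted p). In Pre_Ab_IL13 against Pre_Ab_only, where 2.24% of all genes were called, 0 of the 7 passed (1 at the unadjusted p, JUNB) and their differences ran from -0.16 for FOSL2 to 0.29 for JUNB. In Pre_IL13 against Pre_only, where 0.0308% of all genes were called, 0 of the 7 passed (0 at the unadjusted p) and the differences ran from -0.25 for CEBPB to 0.16 for MAFF. The smallest p in the tests of a difference between responses belonged to FOSL1, whose response to IL-13 was higher after pretreatment than without it by 0.64 (95% interval 0.20 to 1.09, adjusted p = 0.346), with 1.19 in passage 6 and -0.11 in passage 8. The shares over all genes rest on few genes and move when 1 array is left out. Without the Pre_only array of passage 8, 45 genes were called in Pre_IL13 against Pre_only, against 4 with it. Leaving out 1 array at a time gave 21 to 68 genes for the response after against without pretreatment, and 18 to 42 for the response with against without the antibody.

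The antibody without IL-13 changed none of the 9 genes in the limma test. In Pre_Ab_only against Pre_only their differences ran from -0.20 for CEBPB to 0.11 for CEBPD, 0 of 9 had an unadjusted p under 0.05, and 0% of all genes were called. Over all genes 659 had an unadjusted p under 0.05, and the alternative settings called 0 to 31. BATF3 differed by -0.13 (95% interval -0.55 to 0.29) and NFIL3 by -0.13 (-0.39 to 0.14).

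After pretreatment other members of the family were called, in a share near that of all genes. In Pre_only against Control, CEBPB and CEBPD rose and FOSL1 fell. These 3 called genes of 9 stand against 24.8% of all genes called (12% rose and 12.8% fell). This comparison uses the same Control arrays as the comparison of IL13 with Control. In it the groups did not overlap for 3 of the 9 genes, CEBPB, CEBPD and FOSL1, and for 26.7% of all genes, a near share. BATF3 differed by 0.08 (95% interval -0.34 to 0.50, adjusted p = 0.827) and NFIL3 by -0.14 (-0.40 to 0.12, adjusted p = 0.499). In these bulk samples fewer cells of a type and less RNA per cell cannot be told apart.

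CEBPD, a C/EBP factor known as an early responder to inflammatory cytokines, had levels of 9.90, 10.43 and 9.80 in Pre_only, against 8.38, 8.50, 8.61 and 8.64 in Control. Every Pre_only array lay more than 1 log2 unit above every Control array. The difference was 1.44 ± 0.16, a 2.72-fold higher level (adjusted p = 1.73e-08), with 1.72 in passage 6 and 1.17 in passage 8. The level stayed high with IL-13 and with the antibody, averaging 10.25 ± 0.44 in Pre_Ab_IL13, 10.09 ± 0.36 in Pre_Ab_only and 9.95 ± 0.22 in Pre_IL13 (SD, n = 4 each).

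CEBPB, which acts with NF-kB at many cytokine genes, had levels of 12.06, 12.20 and 11.91 in Pre_only, against 11.27, 11.33, 11.77 and 11.67 in Control. The groups did not overlap, but the Control arrays of passage 8 lay above those of passage 6. The difference was 0.56 ± 0.13, a 1.48-fold higher level (adjusted p = 9.35e-04), with 0.82 in passage 6 and 0.18 in passage 8. With median scaling in place of quantile normalisation it was 0.40 and no longer passed (adjusted p = 0.104), nor did it in passage 8 alone (0.18, adjusted p = 0.422), where Pre_only has 1 array.

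FOSL1 levels were 6.24 and 6.34 in Pre_only arrays of passage 6 and 7.32 in the 1 of passage 8, against 7.89, 7.73, 7.72 and 7.78 in Control. All Pre_only arrays lay below all Control arrays, and the passages stood apart in Pre_only but not in Control. The difference was -1.08 ± 0.16, a 2.12-fold lower level (adjusted p = 3.45e-06), with -1.52 in passage 6 and -0.43 in passage 8. The change differed between the passages by 1.09 ± 0.26 (adjusted p = 0.0259, where 1.44% of all genes differed), and in passage 8 alone it did not pass (adjusted p = 0.112). The value for passage 8 rests on that 1 Pre_only array. In the other pretreated groups FOSL1 averaged 6.63 ± 0.30 in Pre_Ab_IL13, 6.61 ± 0.36 in Pre_Ab_only and 6.85 ± 0.15 in Pre_IL13 (SD, n = 4 each), with the highest array at 7.07. All of these 12 arrays therefore lay below the lowest Control array.

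**Figure D3:**
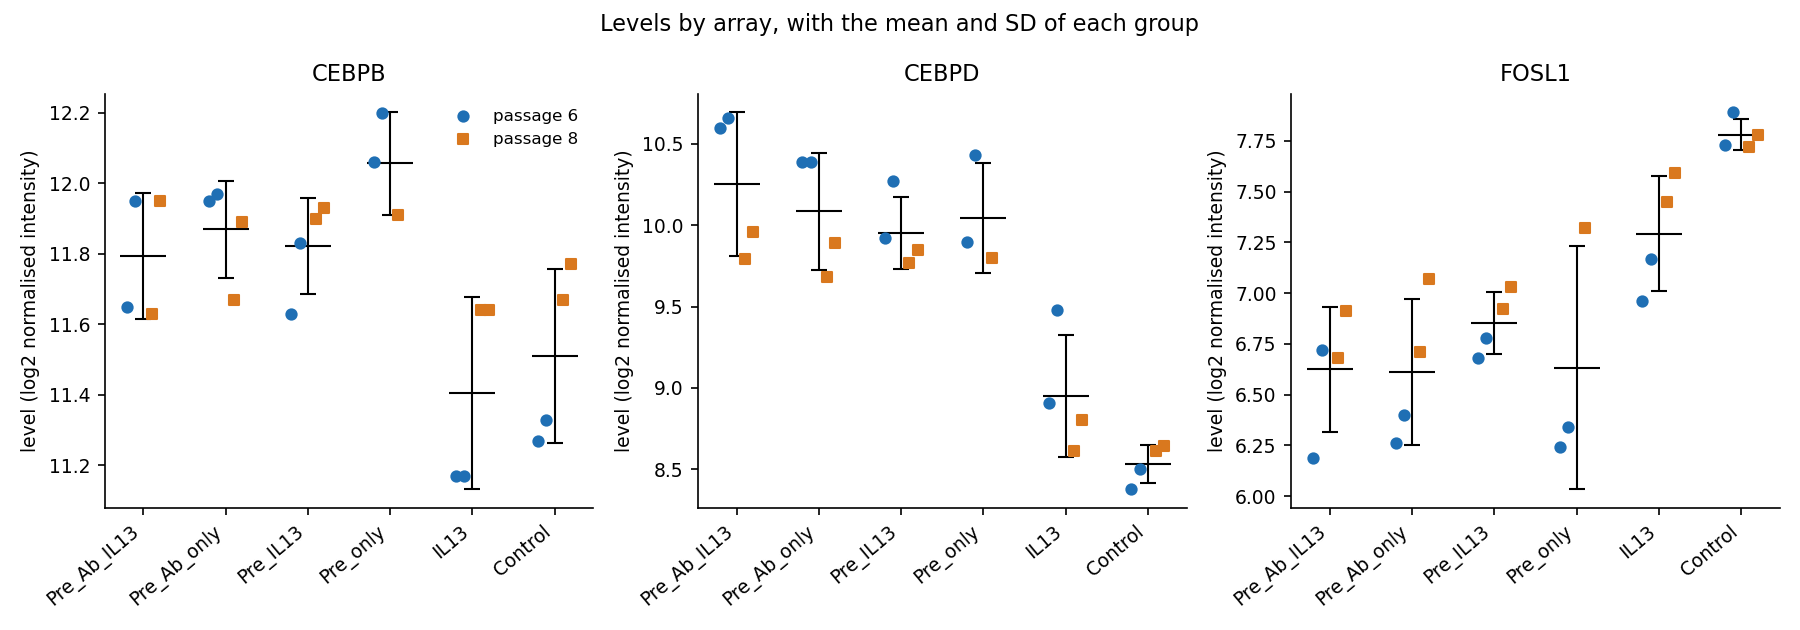
Levels (log2 normalised intensity, vertical axes that do not start at 0) of CEBPB, CEBPD and FOSL1 on each array in the 6 groups, with circles for passage 6, squares for passage 8, and a bar with whiskers for the mean and SD of a group. CEBPD averages 9.95 to 10.25 in the 4 pretreated groups, 8.95 in IL13 and 8.53 in Control, and FOSL1 averages 6.61 to 6.85 in the pretreated groups, 7.29 in IL13 and 7.78 in Control.

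MAFF, a small MAF protein that lacks an activation domain, gave answers that depended on the probe. Its brightest probe, ILMN_1680139, which stands for the gene in all counts here, differed by 0.05 between Pre_only and Control (95% interval -0.19 to 0.30, adjusted p = 0.819). Probe ILMN_2322375 differed by 0.21 ± 0.15 (adjusted p = 0.386, in a fit over all 24096 kept probes). Probe ILMN_1700413 had levels of 7.26, 7.46 and 7.27 in Pre_only, against 4.97, 4.52, 4.66 and 4.47 in Control. It was 2.69 ± 0.17 higher (adjusted p = 3.02e-14 in the same fit, where 18.6% of probes were called).

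Probe ILMN_1700413 was detected on 3 of 3 Pre_only arrays and on 2 of 4 Control arrays, so the lower level is near the floor of detection (levels of 4.58 to 4.71). It was also detected on all 4 arrays of Pre_Ab_IL13, Pre_Ab_only and Pre_IL13, where it averaged 7.22, 6.92 and 7.64, and on 1 of 4 IL13 arrays. It was not higher in IL13 than in Control (-0.19 ± 0.15, adjusted p = 0.71). The files name the same transcript for all 3 probes, and which part of it each probe reads was not analysed here. With the 3 probes averaged, MAFF passed the test in Pre_only against Control (0.98, adjusted p = 1.28e-09).

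**Figure D4:**
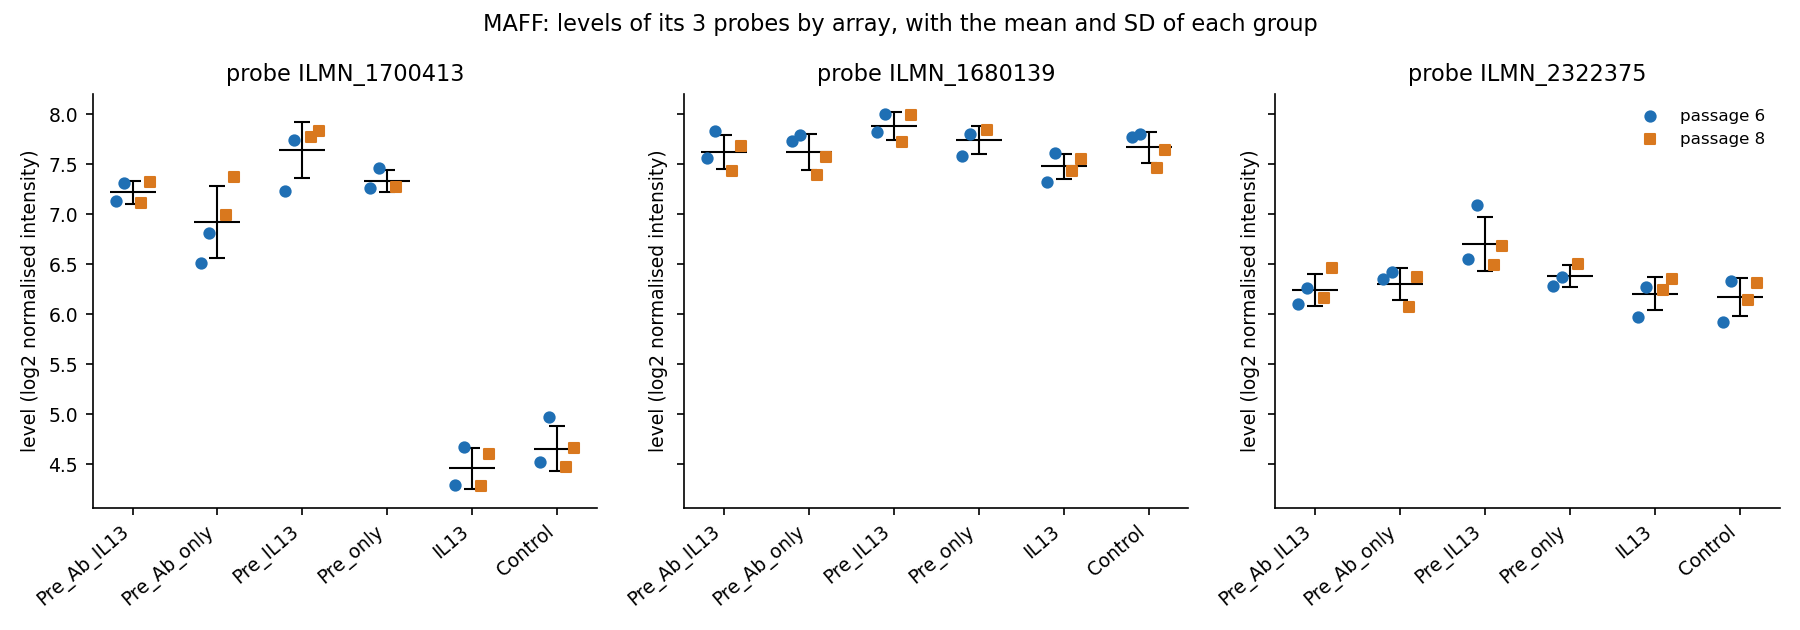
Levels (log2 normalised intensity, vertical axis that does not start at 0) of the 3 MAFF probes on each array in the 6 groups, with circles for passage 6, squares for passage 8, and a bar with whiskers for the mean and SD of a group. Probe ILMN_1700413 averages 6.92 to 7.64 in the 4 pretreated groups, 4.46 in IL13 and 4.65 in Control, while the group means of ILMN_1680139 lie between 7.48 and 7.88.

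CEBPG, FOSL2 and JUNB varied least between group means. CEBPG, a short C/EBP protein that pairs with other bZIP factors, had levels from 6.37 to 7.10 over the 23 arrays, with group means from 6.54 to 6.85. FOSL2, a second FOS-related gene, ran from 5.66 to 6.32, with group means from 5.80 to 6.03. JUNB, a JUN partner for FOS proteins, ran from 5.13 to 6.04, with group means from 5.35 to 5.64. None of the 3 was called in any comparison in which it was tested, and FOSL2 and JUNB are dim, so small changes would be hard to see.

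**Figure D5:**
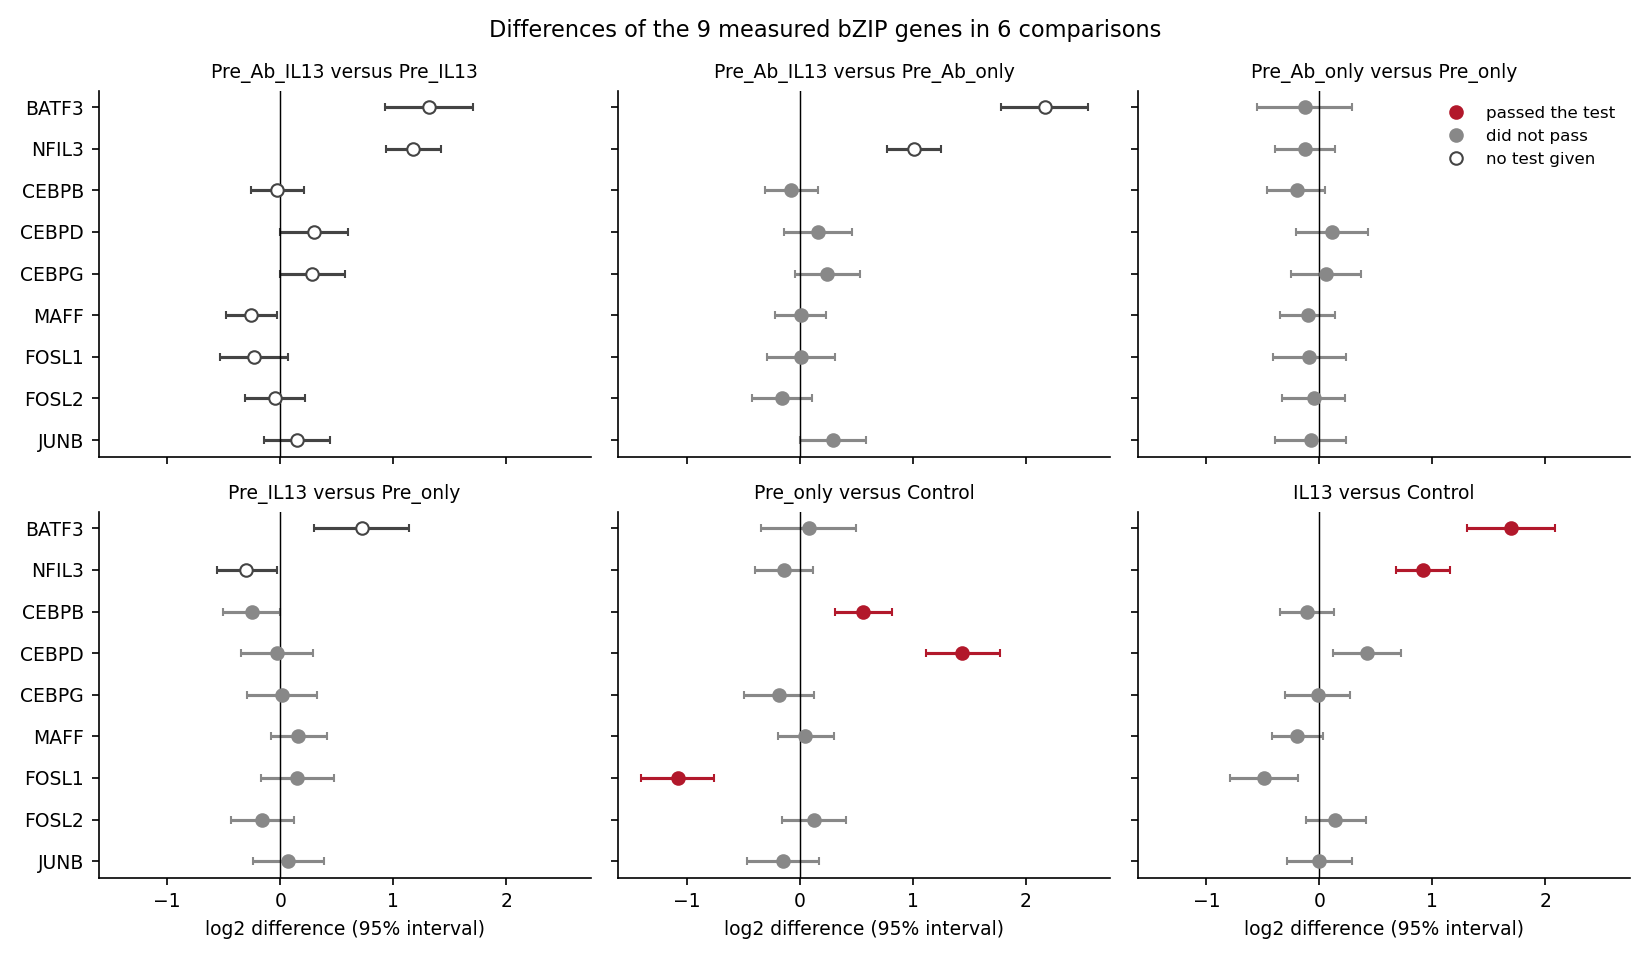
Log2 difference with its 95% interval (horizontal axis) of the 9 measured genes in 6 comparisons between groups, with red points for genes that passed the test, grey points for genes that did not, and open points where no test is given. BATF3 (1.70) and NFIL3 (0.92) pass in IL13 against Control, and CEBPB (0.56), CEBPD (1.44) and FOSL1 (-1.08) pass in Pre_only against Control.

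Of 43 other bZIP genes on a list, 30 were tested. In IL13 against Control, where 1.15% of all genes rose, 1 rose, namely ATF3, a stress-induced repressor (1.30 ± 0.21, adjusted p = 2.46e-04), and 0 fell. In Pre_only against Control 6 rose and 1 fell, where 12% of all genes rose and 12.8% fell, so the share called is near that of all genes. NFE2L3, a relative of NRF2, rose by 1.18, ATF3 by 0.78 (0.29 and no longer called without background correction), and both ATF5 and NFE2L2, which encodes the antioxidant regulator NRF2, by 0.77. JDP2, a repressor of AP-1, fell by 0.43 on the log2 scale. The list's median difference was -0.07, against -0.01 over all genes. In Pre_Ab_IL13 against Pre_Ab_only, where 1.15% of all genes rose, 1 of 30 rose, CREB3L2, a membrane-bound factor of the secretory pathway (0.49 ± 0.10, adjusted p = 0.00245). With median scaling CREB3L2 differed by 0.43 and was not called (adjusted p = 0.413).

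A list of inflammatory genes linked to C/EBP factors in the response to IL-17 and TNF was read in the same comparisons. The pretreatment was TNF and IL-17, so rises in Pre_only follow from how the list was made. The part of C/EBP factors in them was not tested. Of 16 listed, 14 were tested, and in Pre_only against Control 11 rose and 0 fell, where 12% of all genes rose, with a median difference of 2.68 against -0.01 over all genes. Without background correction that median was 1.53. The neutrophil chemokines CXCL6 and CXCL1 rose by 8.78 ± 0.18 and 7.47 ± 0.18, and CXCL8 rose by 6.30 ± 0.24. CXCL5 was undetected on every Control array and at least 289-fold higher in Pre_only. In IL13 against Control, where 1.15% of all genes rose, 1 of 14 rose, the cytokine gene IL6 (1.37 ± 0.29, adjusted p = 0.00649).

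The list of genes known as AP-1 targets went both ways. Of 15 listed, 14 were tested, and in Pre_only against Control 5 rose and 3 fell (12% and 12.8% of all genes), with a median difference of 0.40. MMP3, a matrix protease, rose by 4.01 ± 0.21, PLAU, the urokinase, by 1.02 ± 0.09, and HMOX1, a heme oxygenase, by 0.91 ± 0.17. The protease gene MMP10 was undetected in Control and at least 1.46-fold higher in Pre_only. SPHK1, a sphingosine kinase, fell by 1.81 on the log2 scale, DUSP1, a MAP kinase phosphatase, by 0.84, and the immediate early gene EGR1 by 0.73. In Pre_Ab_IL13 against Pre_Ab_only, where 2.24% of all genes were called, SPHK1 rose (1.11 ± 0.22, adjusted p = 0.00234) and HMOX1 fell (-0.62 ± 0.16, adjusted p = 0.0224). In IL13 against Control, where 1.87% of all genes were called, 0 of 14 were called in limma (5 at an unadjusted p under 0.05).

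NFIL3 competes with activators at D-box sites of clock genes. Of 14 D-box and clock genes listed, 13 were tested. Over all genes 1.87% were called in IL13 against Control and 2.24% in Pre_Ab_IL13 against Pre_Ab_only. BHLHE40, a repressor of the clock, rose in IL13 against Control (0.83 ± 0.15, adjusted p = 0.00118) and in Pre_Ab_IL13 against Pre_Ab_only (0.66 ± 0.15, adjusted p = 0.0115), and it was the 1 listed gene called in each. With median scaling neither call held (0.68, adjusted p = 0.119, and 0.58, adjusted p = 0.225). In Pre_only against Control 0 rose and 3 fell, where 12.8% of all genes fell: BHLHE40 by 0.95 on the log2 scale, NPAS2 by 0.62 and CLOCK by 0.59, the last 2 being partners of BMAL1.

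Of 15 listed partners and signalling genes around BATF proteins and the IL-13 receptor, 14 were tested. In Pre_only against Control 2 of 14 rose, near the 12% over all genes: IRF1, an interferon regulatory factor, by 1.48 ± 0.11, and IL13RA1, a chain of the signalling IL-13 receptor, by 0.65 ± 0.10. In IL13 against Control, where 1.87% of all genes were called, 0 of 14 were called in limma (1 at an unadjusted p under 0.05). In Pre_Ab_IL13 against Pre_Ab_only, where 1.15% of all genes rose, 1 rose, IL4R, the other chain of that receptor (0.56 ± 0.11, adjusted p = 0.00221). With median scaling IL4R did not pass (0.48, adjusted p = 0.345), nor did IL13RA1 in Pre_only against Control (0.50, adjusted p = 0.0541).

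BATF3 is best known from dendritic cells, so markers of leukocytes and dendritic cells were read on the same arrays. Of 12 listed, 6 were tested; the dendritic cell gene CLEC9A was detected on 2 arrays, XCR1 on 5 and IRF8 on 12 of 23. The log2 of the summed intensity of the 6 was 9.68 to 10.52 in IL13, against 10.41 to 10.61 in Control, and it was 11.11 to 11.35 in Pre_Ab_IL13, against 11.26 to 11.44 in Pre_IL13. CD68 and CD14 make up most of that sum, while XCR1 and IRF8 had mean levels of 4.54 and 4.63, at the floor of detection. In IL13 against Control, where 1.87% of all genes were called, 0 of the 6 rose and 1 fell, CD14 (-0.46 ± 0.11, adjusted p = 0.0208). The median difference of the 6 was -0.24. In Pre_only the sum was 11.47 to 11.58, against 10.41 to 10.61 in Control; CD14 rose by 1.19 ± 0.12 and CD68 by 1.10 ± 0.16, while the median of the 6 was -0.03. The part of these genes in the changes of the bZIP genes was not tested.

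Some genes listed as markers of other cell types moved as well, though several of the listed markers were hardly detected. Of the epithelial genes, EPCAM and KRT8 were detected on 2 of 23 arrays, SCGB1A1 on 1 and KRT18 on 3. The endothelial gene PECAM1 was detected on 1, and VWF on 17 with a mean level of 4.87, near the floor of detection. KRT19 and TEK were detected on all 23. In IL13 against Control, beside the rises of BATF3 and NFIL3, the epithelial keratin KRT19 differed by -0.50 ± 0.13 (adjusted p = 0.0347) and the endothelial genes TEK and VWF each by -0.46 (adjusted p = 0.0174 and 0.049). These were all of the 2 endothelial markers tested and 1 of the 2 epithelial ones, where 1.87% of all genes were called. The KRT19, TEK, VWF and CD14 calls were each lost in at least 1 of 4 other scalings. In Pre_only the log2 sum of the 2 epithelial markers was 6.93 to 7.73, against 9.27 to 9.70 in Control, and KRT19 fell by 2.34 on the log2 scale. The endothelial sum was 7.40 to 8.04 in Pre_only, against 7.28 to 7.67 in Control, and TEK rose by 0.42 (0.34 and not called with median scaling) while VWF fell by 0.54 on the log2 scale. In Pre_only against Control 12% of all genes rose and 12.8% fell, and of 11 fibroblast markers 4 rose and 1 fell. Of 4 smooth muscle markers 4 fell in Pre_only against Control, by 0.64 to 2.22 on the log2 scale, beside the changes of CEBPB, CEBPD and FOSL1, and their part in these was not tested.

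Over the 12 means of group and passage, the genes whose levels were most like those of BATF3 were ST8SIA1, a sialyltransferase (Pearson r = 0.959), CCL26 (0.958), CFAP300 (0.944), ANPEP, aminopeptidase N (0.933), and INHBE, an inhibin chain (0.929). Those most like NFIL3 were UQCRC1, a subunit of respiratory complex III (0.954), PPFIBP2 (0.946), PRR16 (0.945), TRAF1, an adaptor of TNF receptors (0.920), and PRRX1, a mesenchymal homeobox factor (0.916). Among the members, BATF3 and NFIL3 followed each other with r = 0.78, and CEBPD and FOSL1 ran opposite with r = -0.92. BATF3 and NFIL3 were chosen for a difference between groups that give 4 of the 12 means, which partly sets their likeness to each other and to the genes above. These points share arrays and normalisation, and the values are descriptions.

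Some of the genes differed between passages and beadchips too, in a share near that of all genes. The model fits 1 passage term common to all groups. By that term CEBPD was lower in passage 8 than in passage 6 (-0.39 ± 0.09, adjusted p = 0.00125) and FOSL1 was higher (0.39 ± 0.09, adjusted p = 0.00124). These were 2 of the 7 genes tested, against 29.4% of all genes called. The CEBPD call was lost with median scaling (-0.23, adjusted p = 0.13). Control did not follow the common term. There CEBPD was at 8.38 and 8.5 in passage 6 and at 8.61 and 8.64 in passage 8, while every other group had a lower mean in passage 8. The passages did not stand apart for FOSL1 in Control, where levels ran from 7.72 to 7.89. BATF3 differed by 0.28 ± 0.11 and NFIL3 by -0.08 ± 0.07, with no test, since the arrays that helped to choose them enter here.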

How the data were processed

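The authors' deposited scanner table holds probe intensity for 47323 probes on 23 arrays, exported from GenomeStudio 2011.1 per the submitters' processing notes, with a detection p-value per the file headers. The authors' deposited table of normalised log2 values was used only as an alternative, and bead counts and errors came from the deposited files of each array. Intensities were background-corrected and quantile normalised with neqc (limma 3.58.1, R 4.3.3, offset 16). Probes with a detection p-value under 0.05 on at least 3 arrays were kept, and the brightest probe with 1 symbol stood for each gene (12994). A linear model with terms for group and passage was fitted over all arrays (16 residual degrees of freedom) with a trended eBayes, and p-values were adjusted over all genes within a comparison. Difference and fold come from that model.

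The members, lists and comparisons were chosen with earlier results of these data known. No p-value is given for any member in Pre_Ab_IL13 against Pre_IL13, or for BATF3 and NFIL3 in a comparison that sets those arrays against others, passage included, and counts cover the members with a test. Named genes are all members, IL13RA2, CCL26 and SOCS1 as checks, at most 4 called genes per list, comparison and direction, and the 5 genes most like BATF3 and NFIL3. SOCS1, an inhibitor of cytokine signalling, was 1.15 ± 0.10 higher in IL13 than in Control. An undetected gene was raised to the lowest detected level on each array before its fold. The fit was tested on simulated data. Experiments A and B were not used to pair the arrays in the main model. Of 25 correlations between groups of their differences within a passage, 2 were over 0.1 (median 0.005, from -0.258 to 0.342). The number of arrays limits the precision.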

Additional observations from a re-analysis of the deposited data

Results flagged for a closer look

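Of 55 sets of 4 arrays (9 genes and the 2 further MAFF probes, in 5 groups), 3 held an array far from the others by Dixon's criterion, and chance flags about 1 in 20. NFIL3 was at 9.0 on IL13 experiment B of passage 6, against 8.33 to 8.44 on the other 3 IL13 arrays. FOSL2 was at 6.31 on IL13 experiment A of passage 8, against 5.89 to 5.96 on the others. MAFF probe ILMN_1700413 was at 7.23 on Pre_IL13 experiment B of passage 6, against 7.74 to 7.83 on the others.

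The fall of FOSL1 in Pre_only against Control differed between the passages by 1.09 in a test of the difference itself, with -0.43 in passage 8 and -1.52 in passage 6. Passage 8 holds 1 Pre_only array, and passage cannot be told apart from beadchip.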

How the results depend on the processing

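Each result was recomputed in up to 41 settings, 23 of which left out 1 array. The called results kept their direction in every setting run, and so did the differences of BATF3 and NFIL3 in their own contrasts with IL-13. BATF3 and NFIL3 passed in IL13 against Control in each of them (0.75 to 1.85 and 0.71 to 1.06). With passage 6 alone 4 members passed in IL13 against Control (CEBPD and FOSL1 added), and 1 passed in the difference between the responses after and without pretreatment (FOSL1, 1.19); with passage 8 alone 1 passed in Pre_only against Control. Leaving out 1 array gave 2 to 3 members in IL13 against Control and 0 to 1 in that difference of responses, where FOSL1 passed without the passage 8 array of Pre_only (0.90, adjusted p = 0.0418). In passage 8 alone the lone Pre_only array was assumed to vary like the other groups.

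With experiments A and B as a replicate block, 2 members passed in IL13 against Control and 3 in Pre_only against Control, and no member's call changed; with this block BATF3 differed by 1.70 and NFIL3 by 0.92 in IL13 against Control. Without both IL13 arrays of passage 6, a setting chosen after seeing the data, the BATF3 response with the antibody exceeded that without pretreatment by 0.86. With median scaling the median difference of all genes was -0.12 in IL13 against Control, 0.20 in Pre_Ab_only against Pre_only and 0.14 in Pre_IL13 against Pre_only, against -0.01 to 0 in the main setting. There the untested NFIL3 difference of passage 8 from passage 6 was 0.04, against -0.08 in the main setting. The naming rule gave 49 pairs of a list or marker gene and a comparison, not all of them printed above; in 4 other scalings 0 changed sign and 21 of 196 repeats lost the call.

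Counts over all genes moved more: apart from leaving out 1 array at a time, 55 to 341 were called in IL13 against Control (243 in the main setting) and 1774 to 3610 in Pre_only against Control (3223), while Pre_IL13 against Pre_only gave 1 to 72 (4) and Pre_Ab_IL13 against Pre_Ab_only 75 to 622 (291). The lowest counts of IL13 against Control came from averaging experiments A and B, which leaves fewer samples. BATF3, FOSL2 and JUNB lie close to the background, which limits how small a change can be seen.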
